A study of Mus musculus with 17 samples.

Results

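Messenger RNA of 10 genes for heat shock proteins and small chaperones was examined in the mouse heart after myocardial infarction (MI). The genes were named one by one: the heat shock protein 70 (HSP70) genes Hspa1a, Hspa1b and Hspa8, the HSP40 gene Dnajb1, the HSP90 gene Hsp90aa1, and the small heat shock protein genes Hspb1, Hspb6, Hspb7, Hspb8 and Cryab. They occupied 9 of the 31647 rows of the count table, because Hspa8 and Hspb8 were counted in a single merged row, and all 9 rows passed the filter on low counts. The mice were male C57BL/6J wild-type animals aged 8 to 11 weeks at surgery, and hearts were taken 5 days later. In the infarct zone (IZ) group (n = 9) MI had been induced by permanent LAD ligation (left anterior descending coronary artery), without reperfusion, and RNA came from the infarcted tissue. In the sham group (n = 8) the operation was the same but for the ligation, and RNA came from the left ventricle. Transcripts were measured by 3′ end sequencing with unique molecular identifiers, which counts the end of each polyadenylated RNA.

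Heat shock proteins are chaperones, which bind unfolded or damaged proteins and keep them from clumping. HSP70 proteins refold clients with energy from ATP, J-domain proteins such as Dnajb1 bring clients to them, and HSP90 takes up a later set of clients. Small heat shock proteins hold unfolded clients without ATP, and several of them are abundant in heart muscle, where they lie along the contractile apparatus. The inducible genes are switched on under stress by heat shock factor 1 (HSF1), which binds heat shock elements, repeats of the unit GAA in alternating orientation.

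Total counts ran from 1237675 to 4738307 per library, and values are given as CPM, counts relative to the library size, after TMM scaling, which brings the bulk of genes to a common level. Of 12301 genes tested, 69.5% were called at an adjusted p below 0.05 (edgeR quasi-likelihood test, Benjamini-Hochberg over all genes), 36.3% as higher and 33.1% as lower in the IZ. The summed level of 12 cardiomyocyte markers, all detected and all 12 called lower, ran from 79102 to 109294 CPM in sham. It was 34354 CPM in IZ replicate 1 and 2754 to 7395 CPM in the other 8 IZ libraries. The 7 macrophage markers summed to 406 to 598 CPM in sham and 2483 to 6460 CPM in the IZ, and the 7 fibroblast markers to 1532 to 2970 and 12650 to 20655 CPM. IZ replicate 1 had the lowest sum of both lists in its group. Of the fibroblast markers 6 were called higher, and Dcn was not called, at a mean of 864 CPM in sham and 886 CPM in the IZ. The 5 smooth muscle markers summed to 224 to 519 CPM in sham and 619 to 1556 CPM in the IZ, with 3 called higher (Acta2, Tagln and Cnn1) and 2 lower (Myh11 and Smtn). The 6 endothelial markers summed to 377 to 726 and 268 to 464 CPM, with 2 called lower (Kdr and Tek) and 4 not called. The 7 skeletal muscle markers summed to 0.792 to 25.1 and 7.36 to 18.5 CPM, and of the 2 tested Tnnt3 was called higher and Tnni2 was not called. In such bulk samples, fewer cells of a type and less RNA per cell cannot be told apart. Scaling by total counts alone, without TMM, moved the median log2 fold change of all genes by 1.09, from 0.054 to 1.14, and turned the split of calls to 74.8% higher and 12.4% lower.

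Of the 9 rows, 5 were called between the IZ and sham, which as a share was no larger than among all genes. Hsp90aa1 was higher, and Hspb6, Hspb7, Cryab and the merged row of Hspa8 and Hspb8 were lower. Hspa1a, Hspa1b, Dnajb1 and the small heat shock protein gene Hspb1 were not called. In 3 rows every IZ library lay below every sham library, which held for 16.5% of all genes tested. By CPM from total counts alone this held for 5.27% of genes and for Hspb7. There, 8 of 9 IZ libraries lay below sham for Cryab and for Hspb6, and none for the merged row. On that scale all 9 IZ libraries lay above sham for Dnajb1, Hsp90aa1 and Hspb1, as for 45.7% of genes. By total counts alone 7 rows were called, with Hspa1b, Dnajb1, Hspb1 and Hsp90aa1 higher and Hspb6, Hspb7 and Cryab lower. Of all 12301 genes tested, 10727 were called on that scale, 74.8% as higher and 12.4% as lower.

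**Figure D1:**
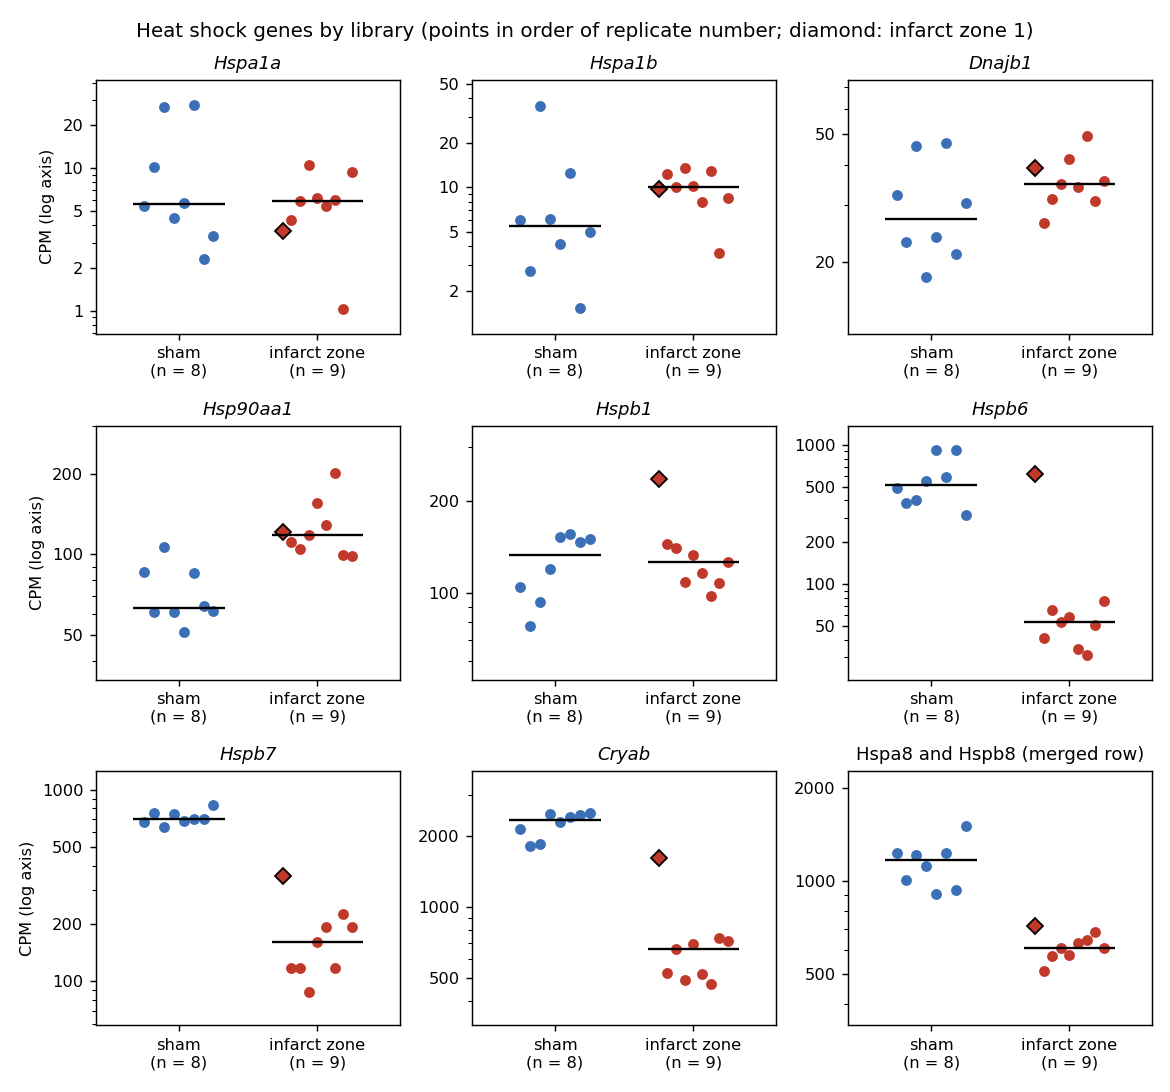
CPM (TMM scaling, log axis) of the 9 rows in each of 8 sham and 9 IZ libraries, with a black bar at the group median and a diamond for IZ replicate 1. Hspb7, Cryab and the merged row separate the groups completely, and Hspb6 does so but for IZ replicate 1 at 617 CPM. In the other rows the groups overlap.

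Hspa1a and Hspa1b, the stress-inducible HSP70 genes, lie near each other on the minus strand of chromosome 17, at chr17:34969190-34972156 and chr17:34956436-34959238 (GRCm38). They code for nearly identical proteins. Their promoters, taken as the 250 bases before the start in RefSeq (GRCm38.p6), were the same at 247 positions (98.8%), and each held the pair of facing units GAANNTTC once, 104 to 97 bases before the start. They are shown because they are so alike, while the ratio of the 2 genes' counts differed between the groups. Capitals mark GAANNTTC, here GAAGATTC, and the sequences at chr17:34972157-34972406 and chr17:34959239-34959488 are written 5′ to 3′ on the minus strand.
Hspa1a: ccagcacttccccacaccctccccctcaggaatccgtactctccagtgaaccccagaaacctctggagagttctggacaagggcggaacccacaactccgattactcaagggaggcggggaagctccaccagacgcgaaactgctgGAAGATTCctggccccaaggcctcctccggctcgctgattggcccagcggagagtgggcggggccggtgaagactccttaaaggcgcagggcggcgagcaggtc
Hspa1b: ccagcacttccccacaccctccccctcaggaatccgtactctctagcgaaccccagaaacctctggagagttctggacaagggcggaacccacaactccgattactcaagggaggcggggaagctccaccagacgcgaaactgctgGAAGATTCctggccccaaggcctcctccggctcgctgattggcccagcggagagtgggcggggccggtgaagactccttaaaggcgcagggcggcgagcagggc
GAANNTTC reads the same on both strands and was found in 6.69% of 32851 promoters of this length and in 4 of the 9 listed for members, the others being those of Hspb1 and of the second listed start of Hspb6. The other arrangement, TTCNNGAA, was in 7.17% of all and in none of the 9 promoters listed for members. The 2 forms with 3 units at the same spacing were in 0.247% and 0.244% of all and in no listed member promoter.

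Both genes were low and varied widely among sham hearts. Hspa1a ran from 2.31 to 27.9 CPM in sham, with a median of 5.58 CPM, and from 1.03 to 10.5 CPM in the IZ, with a median of 5.93 CPM. The groups overlapped almost entirely, and the log2 fold change was -0.74 ± 0.44 (SE, adjusted p = 0.142), with a 95% interval from -1.61 to 0.13. Its direction depended on the scaling, at 0.33 by total counts alone. Hspa1b ran from 1.54 to 35.6 CPM in sham, with a median of 5.51 CPM, and from 3.61 to 13.5 CPM in the IZ, with a median of 10.1 CPM. The log2 fold change was 0.25 ± 0.41 (SE, adjusted p = 0.597), with an interval from -0.56 to 1.07. Without sham replicate 3, which held the highest value, it was 0.94 ± 0.31 and passed the test (adjusted p = 0.0114).

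The spread in sham came from the same hearts in Hspa1a, Hspa1b and Dnajb1. Sham replicates 3 and 6 held 26.9 and 27.9 CPM of Hspa1a, where the next library held 10.2 CPM. They held 35.6 and 12.5 CPM of Hspa1b, with 6.13 CPM next, and 45.9 and 47.0 CPM of Dnajb1, with 32.3 CPM next. In Hsp90aa1 they held ranks 1 and 3 in sham, at 106.9 and 85.3 CPM. The 8 immediate early genes, which react to tissue handling as well as to stress, summed to 697 CPM in sham replicate 3 and 1056 CPM in sham replicate 6, against a sham median of 685 CPM and a highest value of 1138 CPM in sham replicate 1. Their part in the spread was not tested.

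Within the HSP70 pair the balance differed between the groups. Hspa1a gave 54.8 ± 14.1% of the counts of both genes in sham (SD, n = 8) and 37.1 ± 8.99% in the IZ (SD, n = 8), a difference of -17.8 percentage points (exact two-sided permutation test over 12870 splits, p = 0.00886). The share ran from 40.0% to 78.9% in sham and from 25.8% to 52.8% in the IZ, so the groups overlapped. IZ replicate 8 was left out because it held 9 counts of the pair, under the minimum of 10. It gave 22.2%, with a Wilson 95% interval from 6.32% to 54.7%, which covers counting error only. The difference of medians was -15.2 points (exact permutation p = 0.0163). Leaving out each library in turn gave -20.0 to -14.3 points, with exact permutation p from 0.00218 to 0.0177. The ratio does not depend on the scaling of libraries, but it rests on 10 to 121 counts per library. The last 500 bases of both transcripts matched no other annotated transcript over 100 bases at 95% identity.

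**Figure D2:**
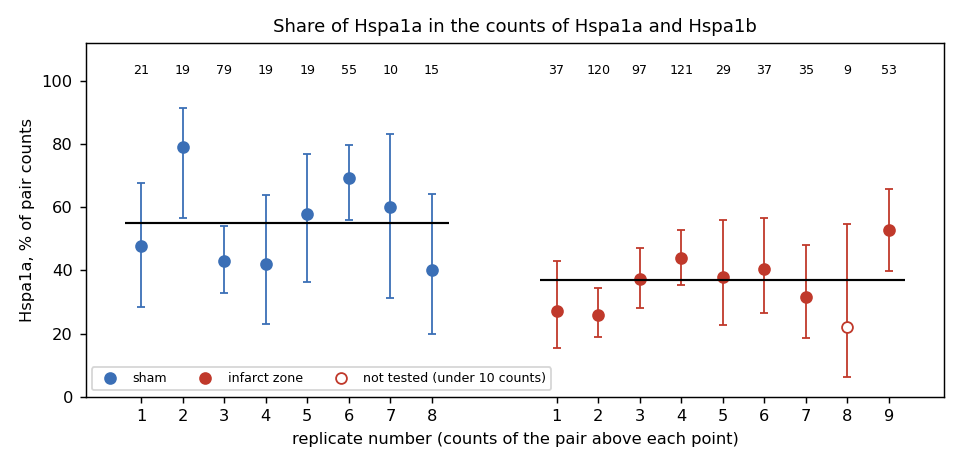
Share of Hspa1a in the summed counts of Hspa1a and Hspa1b (vertical axis, %) in each library, with Wilson 95% intervals, the pair's counts above each point, a black bar at the mean of the tested libraries and an open point for the library left out. Sham lies around 54.8% and the IZ around 37.1%, with overlap.

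Dnajb1, the J-domain partner that stimulates HSP70, lies at chr8:83608193-83612653 on the plus strand. It ran from 17.8 to 47.0 CPM in sham, with a median of 27.2 CPM, and from 26.4 to 49.3 CPM in the IZ, with a median of 35.0 CPM. All but 1 of the IZ libraries lay within the sham range, and the log2 fold change of 0.26 ± 0.18 was not called (SE, adjusted p = 0.192, interval from -0.085 to 0.61). By total counts alone it was 1.33 and called (adjusted p = 3.93e-07), near the all-gene median of 1.14 on that scale. Neither of its 2 listed promoters held GAANNTTC.

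Hsp90aa1, the stress-inducible cytosolic HSP90, lies at chr12:110690605-110702728 on the minus strand. Its level was 51.2 to 106.9 CPM in sham, with a median of 63.0 CPM, and 98.3 to 201 CPM in the IZ, with a median of 118 CPM. Of the 9 IZ libraries, 6 exceeded the highest sham value and the others exceeded all sham libraries but replicate 3. Hsp90aa1 rose 1.76-fold, a log2 fold change of 0.81 ± 0.16 (SE, adjusted p = 1.03e-04). It was the single member row called higher, and it was called in 26 of 26 alternative analyses. Its constitutive relative Hsp90ab1, named after its values were seen, fell by 0.36 ± 0.14 on the log2 scale (SE, adjusted p = 0.0296), from 858 ± 91.1 CPM to 670 ± 140 CPM (SD), a direction that total counts alone turned to 0.72. That call was lost in 10 of 26 alternatives, among them the omission of any of IZ replicates 2, 3, 5, 6 and 9 or of sham replicate 3 (adjusted p over all alternatives 1.04e-04 to 0.134). The difference between these 2 genes was not tested.

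Hspb1, the mouse HSP25, binds actin as well as unfolded proteins and is made in many cell types besides muscle. It lies at chr5:135887919-135889563 on the plus strand, and its promoter (chr5:135887669-135887918) was the only listed member promoter with GAANNTTC more than once, as GAAGTTTC 117 to 110 bases and GAACCTTC 97 to 90 bases before the start. Of all promoters, 0.228% held 2 or more. It is shown beside that of Hspb7 (chr4:141420529-141420778, plus strand), which held none, since Hspb7 fell in the IZ and Hspb1 was not called.
Hspb1: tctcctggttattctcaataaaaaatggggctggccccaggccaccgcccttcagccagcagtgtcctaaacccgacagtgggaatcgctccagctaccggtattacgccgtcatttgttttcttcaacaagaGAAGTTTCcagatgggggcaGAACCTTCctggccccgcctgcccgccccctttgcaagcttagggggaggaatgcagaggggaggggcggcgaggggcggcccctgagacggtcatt
Hspb7: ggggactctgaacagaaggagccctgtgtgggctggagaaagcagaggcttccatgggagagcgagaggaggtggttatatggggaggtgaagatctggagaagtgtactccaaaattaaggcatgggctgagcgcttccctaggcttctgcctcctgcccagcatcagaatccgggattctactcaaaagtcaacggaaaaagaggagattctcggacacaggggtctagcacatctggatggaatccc
Capitals again mark GAANNTTC. These are matches of letters only. Among other members, Hspa1a and Hspa1b held GAANNTTC and were not called, while Hspb6 held it at its second listed start and fell. Dnajb1 held none and was not called. A link between the letters and the calls was not tested.

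Hspb1 ran from 78.0 to 155 CPM in sham, with a median of 133 CPM, and from 97.6 to 234 CPM in the IZ, with a median of 126 CPM. The 234 CPM came from IZ replicate 1, the next library held 144 CPM, and the groups overlapped. Its log2 fold change was 0.10 ± 0.17 (SE, adjusted p = 0.603, interval from -0.23 to 0.43) and -0.071 without IZ replicate 1. By total counts alone it was 1.16 and called, again near the all-gene median on that scale. A pseudogene, Hsp25-ps1, matched its last bases at 97.9% over 193 bases and held 1690 counts against 6189 for Hspb1, so that reads of the pair may have been divided. Its log2 fold change was 0.30 ± 0.21 (SE, adjusted p = 0.194).

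Hspb6, the small heat shock protein HSP20, is a target of cyclic AMP signalling in heart and smooth muscle and lies at chr7:30552178-30555443 on the plus strand, where it overlaps Gm38670 on the same strand and Lin37 and Proser3 on the other. It ran from 312 to 921 CPM in sham, with a median of 520 CPM, and from 30.9 to 617 CPM in the IZ, with a median of 53.8 CPM. IZ replicate 1 alone lay within the sham range, at 617 CPM, and the other 8 held 30.9 to 75.3 CPM. By CPM from total counts alone IZ replicate 1 lay above every sham library and the other 8 below. Hspb6 fell by 2.32 ± 0.51 on the log2 scale, which is 5.00-fold (SE, adjusted p = 3.28e-04). Without IZ replicate 1 it fell by 3.50 ± 0.22 (adjusted p = 3.09e-14). The median of the cardiomyocyte markers was -3.29 with that library and -3.97 without it. With all libraries the markers ran from -4.19 to -2.20, which spans the value of Hspb6.

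Hspb7, a small heat shock protein found chiefly in cardiac and skeletal muscle, lies at chr4:141420779-141425311. Its level was 636 to 833 CPM in sham, with a median of 704 CPM, and 88.1 to 354 CPM in the IZ, with a median of 161 CPM. Every IZ library lay below every sham library, and sham hearts varied little, with a coefficient of variation of 8.41%. Hspb7 fell by 2.05 ± 0.21 on the log2 scale, which is 4.14-fold (SE, adjusted p = 1.18e-08).

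Cryab, which codes for αB-crystallin, a chaperone of desmin and other filaments of the muscle cell, lies at chr9:50751325-50756636. It ran from 1821 to 2515 CPM in sham, with a median of 2352 CPM, and from 471 to 1617 CPM in the IZ, with a median of 663 CPM. The 1617 CPM again came from IZ replicate 1, and the next highest IZ library held 740 CPM. All 9 IZ libraries lay below sham, and Cryab fell by 1.65 ± 0.22 on the log2 scale, which is 3.14-fold (SE, adjusted p = 4.59e-07). Hspb2, the small heat shock protein gene that lies head to head with Cryab, had no row of its own. Its merged row with Hspa2, whose label held a prefix read here as antisense, fell by 1.40 ± 0.17 (SE, adjusted p = 1.30e-07), from 103 ± 10.9 CPM (SD, n = 8) to 39.4 ± 15.3 CPM (SD, n = 9).

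Hspa8 codes for the constitutive HSP70 of the cytosol and lies at chr9:40800984-40810087. Hspb8, at chr5:116408491-116422864, codes for a small heat shock protein that works with the co-chaperone Bag3 in clearing damaged filaments. The table gave them a single row although they lie on different chromosomes. Its label held a prefix read here as antisense, and how the row was formed is not given. The values below therefore belong to the row, and not surely to the sum of the 2 messenger RNAs. The row ran from 912 to 1510 CPM in sham, with a median of 1171 CPM, and from 513 to 714 CPM in the IZ, with a median of 610 CPM. No IZ library reached the lowest sham library, and the row fell by 0.89 ± 0.13 on the log2 scale, 1.86-fold (SE, adjusted p = 2.64e-06), a direction that total counts alone turned to 0.17 ± 0.14 (adjusted p = 0.263). The all-gene median on that scale was 1.14. The last bases of Hspa8 were matched by 6 pseudogenes at 95.7% or more over at least 416 bases, and the 5 of them that were tested held 16430 counts, 46.7% as many as the merged row. Their log2 fold changes ran from -0.22 to 0.33, and none was called (edgeR, smallest adjusted p = 0.155). Whether reads of Hspa8 were assigned to them was not tested.

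**Figure D3:**
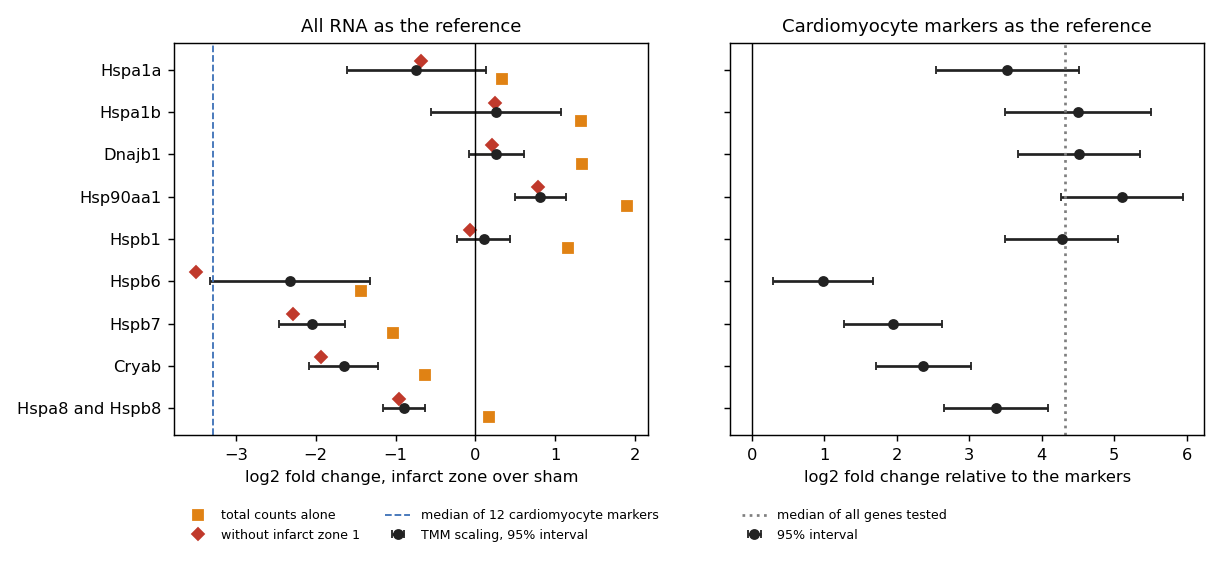
Log2 fold changes (horizontal axis) of the 9 rows, IZ over sham, with 95% intervals, on the left with TMM scaling, by total counts alone (squares) and without IZ replicate 1 (diamonds), and on the right relative to the summed cardiomyocyte markers. The dashed line is the marker median of -3.29 and the dotted line the median of all genes, 4.32; Hspb6, Hspb7 and Cryab lie farthest left in both panels.

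The fold changes were then set against the loss of cardiomyocyte RNA, by giving each library the summed counts of the 12 markers as its size. On this scale 98.2% of all genes were called, 97.9% as higher, with a median log2 fold change of 4.32, so that all 9 member rows were called higher says nothing particular about them. The sizes are therefore read against that median, and the rows stood in the same order as with TMM scaling. The markers themselves ran from -0.67 (Tnni3) to 1.56 (Tnnt2) on this scale. Hspb6 lay within that range, 0.98 ± 0.35 higher relative to the marker sum (SE, adjusted p = 0.00660), and only 2.72% of genes tested had a lower value. It ran from 2.85 to 11.6 counts per 1000 marker counts in sham, with a median of 5.18, and from 6.66 to 19.6 in the IZ, with a median of 12.2, and 5 of 9 IZ libraries lay above sham.

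Hspb7 was 1.94 ± 0.34 higher on the scale relative to the markers, with 7.20% of genes below it. It ran from 6.74 to 8.66 counts per 1000 marker counts in sham and from 10.3 to 38.0 in the IZ, where all 9 libraries lay above sham. Cryab was 2.37 ± 0.34 higher, with 9.50% of genes below it, at 20.6 to 29.0 counts per 1000 marker counts in sham and 47.1 to 179 in the IZ. IZ replicate 1 held the lowest IZ value of both genes, and of every other member row but Hspb6. The merged row was 3.37 ± 0.37 higher and Hspa1a 3.52 ± 0.50. Hspb1, Hspa1b and Dnajb1, at 4.27 ± 0.40, 4.49 ± 0.51 and 4.51 ± 0.43, lay close to the all-gene median, and Hsp90aa1 lay above it at 5.11 ± 0.43. Neighbours in this order had overlapping intervals, and their differences were not tested.

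**Figure D4:**
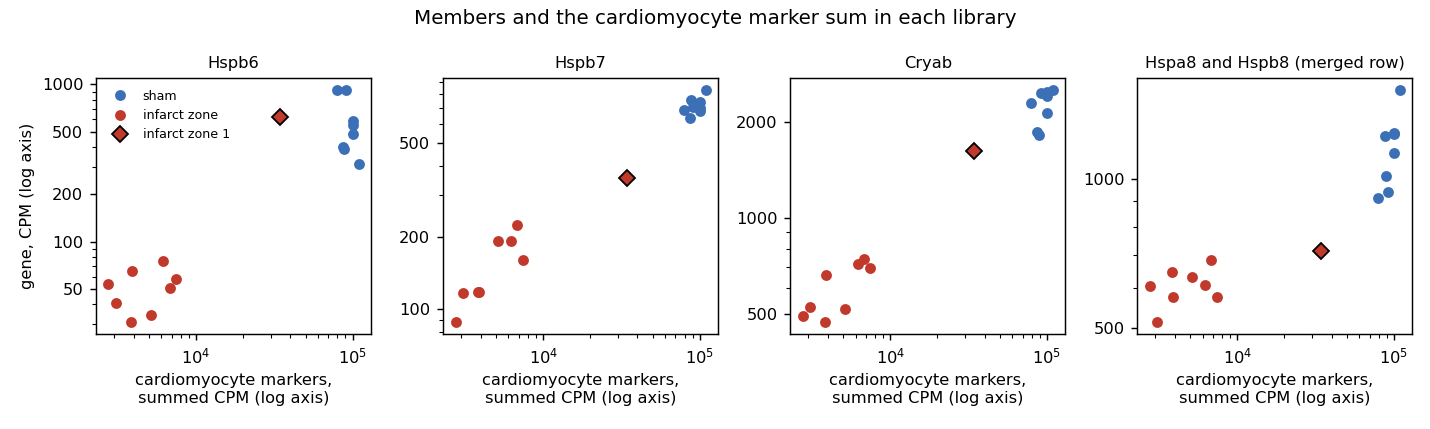
CPM of Hspb6, Hspb7, Cryab and the merged row (vertical, log axis) against the summed CPM of 12 cardiomyocyte markers (horizontal, log axis) in each library. IZ replicate 1 (diamond) lies between sham and the other 8 IZ libraries in marker level, at 34354 CPM, and is the highest IZ library in all 4 panels.

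Other genes of the chaperone system were taken as 7 lists with 80 tested genes. Of these, 47 were called lower (58.8%), 7 higher and 26 not, against 33.1% of all genes called lower, and the median log2 fold change was -0.51. Total counts alone gave 19 lower and 52 higher, where 74.8% of all genes were higher. Without IZ replicate 1 the counts were 48 lower and 7 higher.

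The mitochondrial chaperones, which import and fold proteins inside the organelle, were lower in 11 of 12 tested genes, with a median of -1.71 and none higher. Grpel1, the nucleotide exchange factor of mitochondrial HSP70, fell by 2.99 ± 0.20 on the log2 scale (SE, adjusted p = 1.08e-11), and Hspe1, the HSP10 lid of the mitochondrial folding chamber, by 0.94 ± 0.13. By total counts alone 7 of the 12 were lower and 2 higher, Hspe1 being at 0.15.

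Among the co-chaperones of HSP70 and HSP90, 14 of 25 tested genes were lower, 3 higher and 8 not called, with a median of -0.53, and total counts alone turned this to 6 lower and 19 higher. Unc45b, the myosin chaperone of striated muscle, fell by 2.80 ± 0.21 on the log2 scale (SE, adjusted p = 8.65e-11). Fkbp5, an HSP90 partner of the glucocorticoid receptor that glucocorticoids induce, rose by 1.83 ± 0.26 (SE, adjusted p = 1.66e-06). Bag3, the partner of Hspb8, which is named here after its values were seen, fell by 1.83 ± 0.18 (SE, adjusted p = 3.65e-09), from 198 ± 38.3 CPM (SD, n = 8) to 55.9 ± 22.5 CPM (SD, n = 9).

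In the list of other HSP70, HSP110 and HSP90 family genes, which does not cover the families, 5 of 8 tested genes were lower and 1 higher. Their median was -0.48, and by total counts alone 1 was lower and 5 higher. Hspa12a fell by 1.96 ± 0.26 on the log2 scale and Hspa13, which is found at membranes of the secretory pathway, rose by 1.25 ± 0.17. Of the other J-domain proteins listed for the cytosol 7 of 16 were lower, 3 higher and 6 not called, with a median of -0.22. Total counts alone gave 4 lower and 10 higher. Dnajb5 fell by 2.19 ± 0.20 and Dnajc13, a J-domain protein of endosomes, rose by 0.71 ± 0.16.

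The chaperonin and prefoldin list, whose products fold actin and tubulin, had 6 of 14 genes lower and none higher, with a median of -0.12, and total counts alone called 12 higher and none lower. Pfdn2 fell by 0.96 ± 0.14 and Pfdn5 by 0.29 ± 0.12 on the log2 scale, and both were above 0 by total counts alone, at 0.13 and 0.80. Of 5 other genes listed with the small heat shock proteins, Hspb3, a muscle member, fell by 2.58 ± 0.34 (SE, adjusted p = 5.46e-07). Hspb11, listed for its symbol, was at 0.33 ± 0.18 and not called (adjusted p = 0.119). It was called higher in 4 of 25 alternatives, namely upper quartile scaling, total counts alone, thinning and without IZ replicate 7. Hspb9 and Cryaa were too low to be tested, and Hspb2 was in the merged row given above. HSF1 itself fell slightly at the RNA level: Hsf1 was at -0.57 ± 0.18 (SE, adjusted p = 0.00700), Hsf2 at -0.65 ± 0.17, and Hsbp1, a binding partner of HSF1, at -0.29 ± 0.10. All 3 were called higher by total counts alone, and Hsf4 and Hsf5 were too low to be tested.

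**Figure D5:**
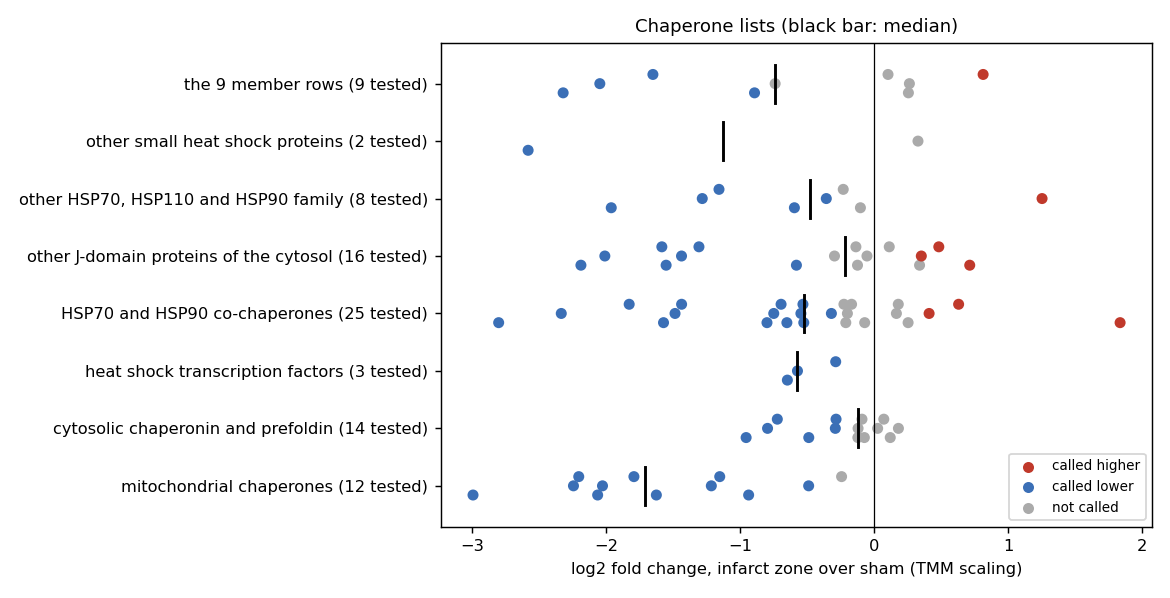
Log2 fold change (horizontal axis, TMM scaling) of each tested gene in the 9 member rows and 7 further chaperone lists, coloured by call, with a black bar at the list median. The mitochondrial list has the lowest median, -1.71, with 11 of 12 genes called lower, and the chaperonin list has the median nearest 0, -0.12.

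Profiles over all 17 libraries were compared by the root mean square distance of centred log2 CPM, over the 9348 other genes whose mean reached 10 CPM. The points share libraries, and for members that fell the group difference makes up much of the profile. Cryab lay nearest to Cfl2, which codes for muscle cofilin (distance 0.133), and the merged row to Map7d1 (0.144). Hspb7 lay nearest to Pacsin3 (0.224) and Hspb6 to the mitochondrially encoded mt-Nd4 (0.250). Mitochondrially encoded features took 22.9% to 32.4% of the counts in sham and 4.22% to 19.5% in the IZ. Hsp90aa1 and Hspa1b had the same nearest gene, Cul7, but at 0.212 and 0.698. Hspb1 lay nearest to Prnp (0.225) and Dnajb1 to Setd7 (0.254). For Hspa1a the nearest gene, Rfxap, was at 0.727, farther than for any other member, and at 0.606 with a prior count of 5. Hspa1a and Hspa1b had means of 8.17 and 9.57 CPM, below the 10 CPM asked of the genes searched. The part of counting error in their distances was not tested.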

How the data were processed

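Hearts of 8 sham-operated mice and 9 mice with MI were compared. Per the labels, total RNA was treated with DNase and made into 3′ end libraries (MACE) with molecular identifiers for removal of PCR duplicates. The study trimmed reads with Cutadapt 4.6, and the submitters' processing notes list bcl2fastq, Bowtie2, HTSeq, DESeq2 and the build mm10. The authors deposited raw counts per gene with no normalization. The handling of reads with several locations is not given in the sources used here. Of 31647 rows, 35 were merged groups of genes, 7 of them joining genes of different chromosomes. Identifiers were matched to an annotation of GRCm38 (31521 matched). The 10 member genes and the lists were chosen with earlier results of these data known.

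Counts were tested in R 4.3.3 with edgeR 4.0.16 (filterByExpr, minimum count 10, TMM factors 0.613 to 1.54, quasi-likelihood F-test, two-sided, no covariates), with Benjamini-Hochberg adjustment over all genes tested and a threshold of 0.05. Relative fold changes came from the same test with the summed counts of 12 cardiomyocyte markers as library size. The SE of an edgeR fold change was derived as its absolute log2 value over the square root of F. The 95% intervals multiplied this by the normal quantile, which makes them somewhat narrower than the F-test would. Log2 CPM used a prior count of 1. Shares were compared by exact permutation (SciPy 1.17.1), and intervals of shares cover counting error only. Nothing in the labels tells whether samples differ in batch. The p-values weigh each group difference against the spread between these hearts. An unrecorded batch that followed the groups could not be told apart from that difference. Genes outside the members were named as the highest and the lowest called gene of each chaperone list with a mean of at least 10 CPM, every gene of lists of at most 5, and the nearest profile of each member. Near-identical ends were sought with BLAST 2.17.0 over the last 500 bases of transcripts, with matches of at least 100 bases at 95% identity. Promoters came from RefSeq (GRCm38.p6), where 7 of the 10 genes had an entry, and not Cryab, Hspa8 or Hsp90aa1. Both test procedures were tested on simulated data. Those for edgeR held 198 or 200 changed genes, so they do not test the scalings where most genes differ. No library was a copy of another, with chi-square values per degree of freedom of 2.56 to 281 over all pairs. Alternatives were other scalings, the DESeq2 1.42.0 Wald test, other filters, thinning, removal of mitochondrial features, a replicate block, other marker sizes and the omission of each library. Tables and plots used Python 3.11.15, pandas 2.3.3 and Matplotlib 3.10.9.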

Additional observations from a re-analysis of the deposited data

Results flagged for a closer look

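Of 38 sets of group values examined, 7 held a library whose gap to the next was wide against the range of its group (Dixon's 95% limit). About 1 in 20 independent, normally distributed sets would pass that limit. The sets here share libraries and genes, so the number found cannot be set against that rate. IZ replicate 1 stood apart as the highest IZ library for Hspb6 at 617 CPM, Cryab at 1617 CPM and Hspb1 at 234 CPM. The same library held 3.58% of its counts in the 12 cardiomyocyte markers, against 0.410% to 1.04% in the other IZ libraries and 5.00% to 7.89% in sham. By this rule it did not stand apart for any member per 1000 marker counts. It still held the lowest IZ value there in every member row but Hspb6. For Hsp90aa1 that was 3.53 counts per 1000 marker counts, against 14.6 to 52.7 in the other IZ libraries. Sham replicate 3 stood apart for Hspa1b, at 35.6 CPM and 0.409 counts per 1000 marker counts, and for Hsp90aa1 at 1.23 counts per 1000 marker counts. IZ replicate 4, with the lowest share of marker counts, stood apart for Hspa1a at 3.81 counts per 1000 marker counts.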

How the results depend on the processing

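Over 26 alternatives, or 25 for the lowest genes, 225 of 232 fold changes of members kept their direction and their side of the threshold. By total counts alone Hspa1a turned to 0.33 and the merged row of Hspa8 and Hspb8 to 0.17, and Hspa1b, Dnajb1 and Hspb1 became called at 1.32, 1.33 and 1.16, on a scale that moved the median of all genes by 1.09. Without IZ replicate 1 Hspb1 turned to -0.071, and without sham replicate 3 Hspa1b became called at 0.94, and the cause was not tested. Relative to the markers, 180 of 180 values kept direction and call. Leaving out each library gave 7962 to 8614 called genes, 5 to 6 called member rows, 50 to 56 called genes of the other chaperone lists (54 with all libraries) and 12051 to 12150 genes called relative to the markers. A minimum mean of 50 counts gave 5239 called genes, since fewer genes were tested, and DESeq2 gave 10295 against 8544. With a prior count of 5 the nearest gene became Itpr2 (0.206) for Hsp90aa1 and Acad12 (0.224) for Hspb7. Hspa1a and Hspa1b rested on 2 to 89 counts per library, which limits the precision of single libraries, and their values also spread widely among sham hearts.

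Sham and IZ samples came from different mice, so the replicate numbers do not pair them. Same-numbered libraries correlated at -0.31 to 0.20, and 1 of 8 correlated best with its own number. A replicate block over 16 libraries, which has no basis in the design, called 7883 genes and 5 member rows, and 12012 genes and 9 member rows relative to the markers.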
